A study of Homo sapiens with 8 samples.

Results

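The genes described here encode 10 lysine acetyltransferases of histones other than KAT5: KAT2A, KAT2B, KAT14, HAT1, KAT6A, KAT6B, KAT7, KAT8, EP300 and CREBBP. They were taken by symbol from the 27936 genes with an Entrez ID in the count tables of a HEK293 experiment, and each of the 10 was found and passed the filter on low counts, among 14455 genes tested. HEK293 is an immortalised line from human embryonic kidney. The experiment lowered KAT5, the gene of TIP60, and the question put to these genes was whether the mRNA of another acetyltransferase was higher when KAT5 was lowered. The 4 KO libraries (2 with sgRNA1, 2 with sgRNA2) carry the genotype label HEKg1/C9, and the 4 control libraries (2 with sgRNA1, 2 with sgRNA2) the label HEKg1. What C9 stands for and what the guides of the control libraries target are not explained. The genotype label differs between the arms in every library. Its part and that of lowered KAT5 in any KO to control difference cannot be told apart. Guide expression was switched on in all 8 with doxycycline, 1 µg/ml over 3 days. The labels do not say whether the replicates were separate cultures or whether the lines were clones, so the p-values measure the spread between these libraries alone.

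Acetyltransferases move an acetyl group from acetyl-CoA to lysines of histones and other proteins, which loosens chromatin and recruits proteins that read the mark. Enzymes of the MYST family (KAT5, KAT6A, KAT6B, KAT7, KAT8) share a catalytic domain and work in complexes with other subunits. The GNAT family holds KAT2A and KAT2B, exchangeable catalytic subunits of the coactivator complexes SAGA and ATAC, together with KAT14 of ATAC and HAT1, which acetylates new histone H4 before it is laid into chromatin. EP300 and CREBBP, known as p300 and CBP, are large coactivators that many transcription factors bind.

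The pair whose mRNAs moved in opposite directions was KAT2A and KAT2B. The 250 bases before the annotated start of each are printed 5′ to 3′ from the RefSeq promoter table (GRCh38.p14), to show how the paralogs differ where transcription begins. KAT2A lies on the minus strand at chr17:42121368-42121617 and KAT2B on the plus strand at chr3:20040196-20040445. Capitals mark the GC box GGGCGG on either strand.
KAT2A: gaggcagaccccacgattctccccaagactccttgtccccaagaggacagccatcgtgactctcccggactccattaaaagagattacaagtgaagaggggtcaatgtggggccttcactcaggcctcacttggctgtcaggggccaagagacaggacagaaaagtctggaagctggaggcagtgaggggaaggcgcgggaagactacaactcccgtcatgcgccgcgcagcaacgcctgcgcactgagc
KAT2B: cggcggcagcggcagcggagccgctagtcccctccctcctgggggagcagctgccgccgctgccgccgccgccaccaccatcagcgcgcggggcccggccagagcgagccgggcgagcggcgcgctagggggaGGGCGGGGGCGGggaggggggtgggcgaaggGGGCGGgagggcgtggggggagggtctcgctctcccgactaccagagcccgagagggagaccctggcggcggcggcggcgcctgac
The KAT2A stretch held no GC box and was 58.8% G and C, and the KAT2B stretch held 3 GC boxes and was 80.8% G and C. Of 35116 promoter stretches of the same length in the table, 42.6% held at least 1 GC box, and the median G and C content was 58.0%. Searched on both strands, CCAAT (in 32.0% of promoters), CACGTG (6.34%), CCGGAAG (8.52%), AAGATGGC (1.36%), the NRF1 motif (1.03%) and TGACGTCA (1.65%) with the shorter TGACGT inside it (7.10%) occurred in neither stretch. Of the other genes with such a stretch in the table, KAT5, EP300 and KAT7 held 0 GC boxes and HAT1 held 1. Genes with several annotated starts held 3 and 4 (CREBBP), 0, 10 and 1 (KAT6B) and 0 to 2 (KAT14). These matches describe the sequence and are not evidence of binding, and a link to the direction of change was not tested.

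Counts over genes ranged from 13325415 to 18841774 per KO library and from 3723992 to 14601552 per control library. Control sgRNA1 replicate 2 was the shallowest, and it still held 59 to 1011 counts for each of the 11 genes. Of 7 markers chosen for HEK293, 5 (EYA1, NEFM, KRT8, KRT18, VIM) exceeded 1 CPM in every library, while PAX2 (0.643 to 1.19 CPM in KO, 0.323 to 1.31 in control libraries) and LHX1 (at most 0.292 and 0.276) were scarce. Of 13 markers of leukocytes, fibroblasts, endothelium and hepatocytes, LCP1 (376 to 389 CPM in KO, 505 to 562 in control libraries) and COL1A1 (15.9 to 20.1 and 12.4 to 20.8) were present, and no other exceeded 0.876 CPM in a KO library or 0.539 in a control library. CPM here are library-scaled counts (TMM) on the usual CPM scale, and means are given ± SD over the 4 libraries of an arm.

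KAT5 mRNA was present at 18.6, 18.3, 20.2 and 18.01 CPM in the KO libraries, against 48.2, 45.5, 44.5 and 49.0 CPM in the control libraries. All KO libraries lay far below all controls, and the KO mean was 40.1% of the control mean (log2 fold change -1.32 ± 0.064 SE, edgeR quasi-likelihood test, Benjamini-Hochberg adjusted p = 6.71e-13). An exact two-sided permutation test gave p = 0.0286, the smallest that 4 against 4 libraries allow. In bulk RNA, fewer cells with a transcript and less transcript per cell cannot be told apart. The exons of KAT5 are shared over 38.6% of their bases with RNASEH2C on the other strand, whose own log2 fold change was -0.33 ± 0.051, and the strand setting of the counting is not given in the sources used here.

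Of the other 10 genes, 5 were higher in KO libraries (KAT14, KAT2B, KAT6A, EP300, HAT1), 1 was lower (KAT2A) and 4 did not pass the test (KAT6B, KAT7, KAT8, CREBBP) at an adjusted p under 0.05. Calls were common in this comparison: 63.0% of the 14455 genes were called, 31.8% higher and 31.2% lower. Among the 8001 tested genes within the members' range of mean level, 17.3 to 226 CPM, 69.0% were called, 29.3% higher and 39.7% lower. The median log2 fold change of the 10 was 0.14, beside 0.0068 over all tested genes and -0.049 over those in the same range, and the median size of the change was 0.21, beside 0.29 and 0.23. The rises were all small. The 95% interval of the fold change ended at 1.48-fold for KAT14, the upper end for the 10, and the fall of KAT2A stood at rank 2789 by size among all tested genes. The 6 genes called were also those whose KO and control libraries did not overlap, 5 above and 1 below, and over all tested genes 52.9% did not overlap, 27.3% above and 25.6% below.

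**Figure D1:**
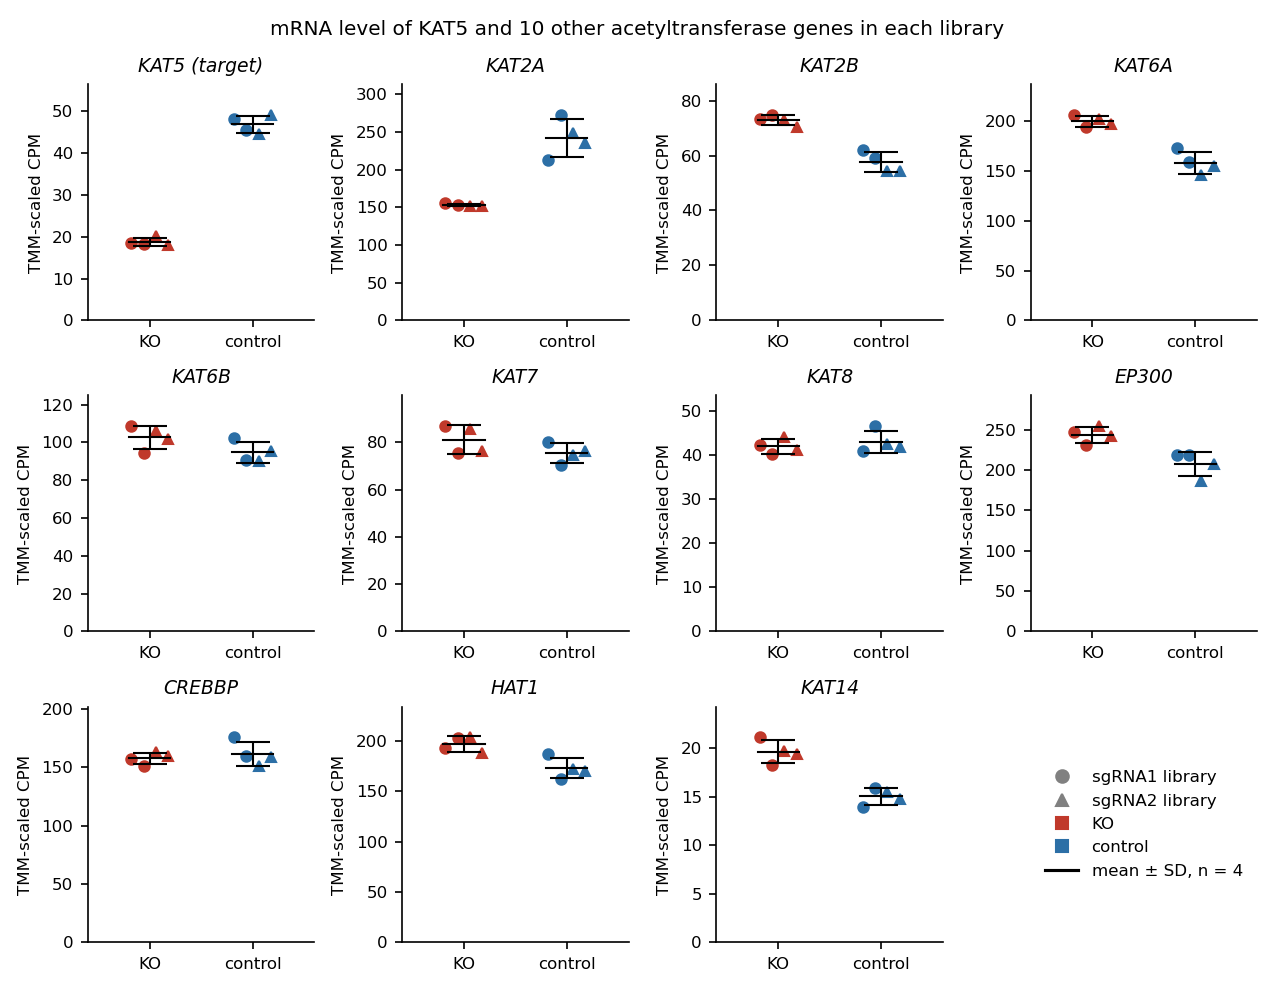
Level of KAT5 and the 10 other acetyltransferase genes in TMM-scaled CPM (vertical axes, from 0), with the 4 KO libraries left of the 4 control libraries in each panel, circles for sgRNA1, triangles for sgRNA2 and bars for mean ± SD. KAT5 and KAT2A lie lower in KO, at 40.1% and 63.3% of the control mean, and KAT2B, KAT6A, EP300, HAT1 and KAT14 lie higher with no overlap.

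In the GNAT family the change of greatest size was the fall of KAT2A, also called GCN5, which acetylates histone H3 at promoters (gene ID 2648, chromosome 17, 42113111 to 42121367, GRCh38). It had 156, 154, 152 and 152 CPM in the KO libraries, against 213, 272, 248 and 235 CPM in the control libraries. The KO libraries lay close together and the controls were spread widely, yet the arms did not overlap. The log2 fold change was -0.65 ± 0.055 (SE, adjusted p = 2.97e-09), a KO level of 63.3% of control. Within the controls, KAT2A was lowest in sgRNA1 replicate 1 and highest in sgRNA1 replicate 2, and the share of counts from the mitochondrial chromosome followed the same order (1.46, 3.27, 2.92 and 2.63% of counts). The KO libraries held 2.32 to 2.50% mitochondrial counts, inside the range of the controls, and the part of this share in the values of KAT2A was not tested. Without control sgRNA1 replicate 2 the change of KAT2A was -0.60, and without control sgRNA1 replicate 1 it was -0.72. AC099811.2, a gene of GENCODE, shares 10.7% of the exonic bases of KAT2A on the same strand.

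KAT2B, also called PCAF, is the paralog that takes the place of KAT2A in the same complexes (gene ID 8850, chromosome 3, 20040446 to 20154404). It had 73.4, 74.6, 73.0 and 70.5 CPM in the KO libraries, against 61.9, 59.0, 54.5 and 54.5 CPM in the control libraries. Every KO library was above every control (log2 fold change 0.34 ± 0.048, adjusted p = 2.86e-06). No run of 80 bases, the read length, in the coding transcripts of either gene occurs in the other. Per kb of gene length, the scale on which genes can be set side by side, KAT2A differed by -26.6 and KAT2B by 3.07 CPM per kb between KO and control libraries. The pair together stood at 60.5 ± 0.741 CPM per kb in KO and 84.1 ± 7.28 in control libraries. KAT2B amounted to 0.308 to 0.322 of KAT2A per kb in the KO libraries, against 0.144 to 0.193 in the control libraries.

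KAT14 carries a further acetyltransferase domain of ATAC (gene ID 57325, chromosome 20, 18137153 to 18188035). It was the member with the lowest level and, by fold, the one that rose most. It had 21.1, 18.3, 19.7 and 19.4 CPM in the KO libraries, against 14.0, 15.9, 15.5 and 14.8 CPM in the control libraries (log2 fold change 0.40 ± 0.082, adjusted p = 0.000237). The groups did not overlap, but with 59 to 377 counts a library its interval, 1.17 to 1.48-fold, was the widest of the 10 in relative terms. PET117, a mitochondrial assembly factor, shares 16.7% of the exonic bases of KAT14 on the same strand. PET117 itself had 5.17 ± 0.830 CPM in KO and 5.204 ± 0.778 in control libraries (adjusted p = 0.885).

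HAT1 modifies new histone H4 in the cytosol and nucleus (gene ID 8520, chromosome 2, 171922461 to 171983686). It had 193, 203, 204 and 188 CPM in the KO libraries, against 187, 163, 173 and 170 CPM in the control libraries. The lowest KO library, at 188 CPM, lay just above the highest control, and the log2 fold change was 0.18 ± 0.047 (adjusted p = 0.00262).

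Among the MYST genes, the paralogs of KAT5 proper, only KAT6A passed the test. KAT6A, also called MOZ (gene ID 7994, chromosome 8, 41929479 to 42051987), had 206, 193, 202 and 197 CPM in the KO libraries, against 172, 159, 146 and 155 CPM in the control libraries. Every KO library was above every control, with a log2 fold change of 0.34 ± 0.046 (adjusted p = 2.49e-06). Its close paralog KAT6B, or MORF (gene ID 23522, chromosome 10, 74824936 to 75032624), had 109, 94.6, 106 and 102 CPM in the KO libraries, against 102, 90.5, 90.4 and 95.6 CPM in the control libraries. The arms of KAT6B overlapped in part, and its change of 0.11 ± 0.053 had a 95% interval of 0.9997 to 1.17-fold (adjusted p = 0.0764). It passed without KO sgRNA1 replicate 2 (0.15, adjusted p = 0.0259) and without control sgRNA1 replicate 1 (0.16, adjusted p = 0.0166), with the replicate number as a block (adjusted p = 0.0369), with a stricter filter (0.0495) and with library totals alone (0.0197).

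KAT7, or HBO1, which acetylates histone H3 and H4 and takes part in licensing replication origins (gene ID 11143, chromosome 17, 49788681 to 49835026), had 86.9, 75.6, 85.9 and 76.4 CPM in the KO libraries, against 80.4, 70.3, 74.9 and 76.2 CPM in the control libraries. The arms overlapped and the interval was 0.985 to 1.16-fold (log2 fold change 0.096 ± 0.056, adjusted p = 0.144). With library totals alone it passed (0.13, adjusted p = 0.0470), as it did with counts thinned to the smallest library (0.20, adjusted p = 0.0148). Its change was smaller without KO sgRNA2 replicate 1 (0.047, adjusted p = 0.521), KO sgRNA1 replicate 1 (0.053, adjusted p = 0.475) or control sgRNA1 replicate 2 (0.062, adjusted p = 0.339). GENCODE's AC027801.4 shares 2.68% of the exonic bases of KAT7 on the same strand. KAT8, or MOF, which acetylates the tail of histone H4 (gene ID 84148, chromosome 16, 31117664 to 31131393), had 42.3, 40.4, 44.2 and 41.3 CPM in the KO libraries, against 40.9, 46.6, 42.6 and 42.0 CPM in the control libraries. The arms overlapped, and the interval of the difference was 0.915 to 1.08-fold (adjusted p = 0.883).

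The coactivator paralogs parted. EP300 (gene ID 2033, chromosome 22, 41092592 to 41180077) had 247, 231, 254 and 243 CPM in the KO libraries, against 218, 218, 187 and 207 CPM in the control libraries. All KO libraries were above all controls, by a log2 fold change of 0.24 ± 0.050 (adjusted p = 0.000332). CREBBP (gene ID 1387, chromosome 16, 3725054 to 3880713) had 157, 151, 163 and 160 CPM in the KO libraries, against 175, 160, 151 and 158 CPM in the control libraries. The KO range of CREBBP lay inside that of the controls, with an interval of 0.912 to 1.05-fold (log2 fold change -0.032 ± 0.048, adjusted p = 0.578).

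**Figure D2:**
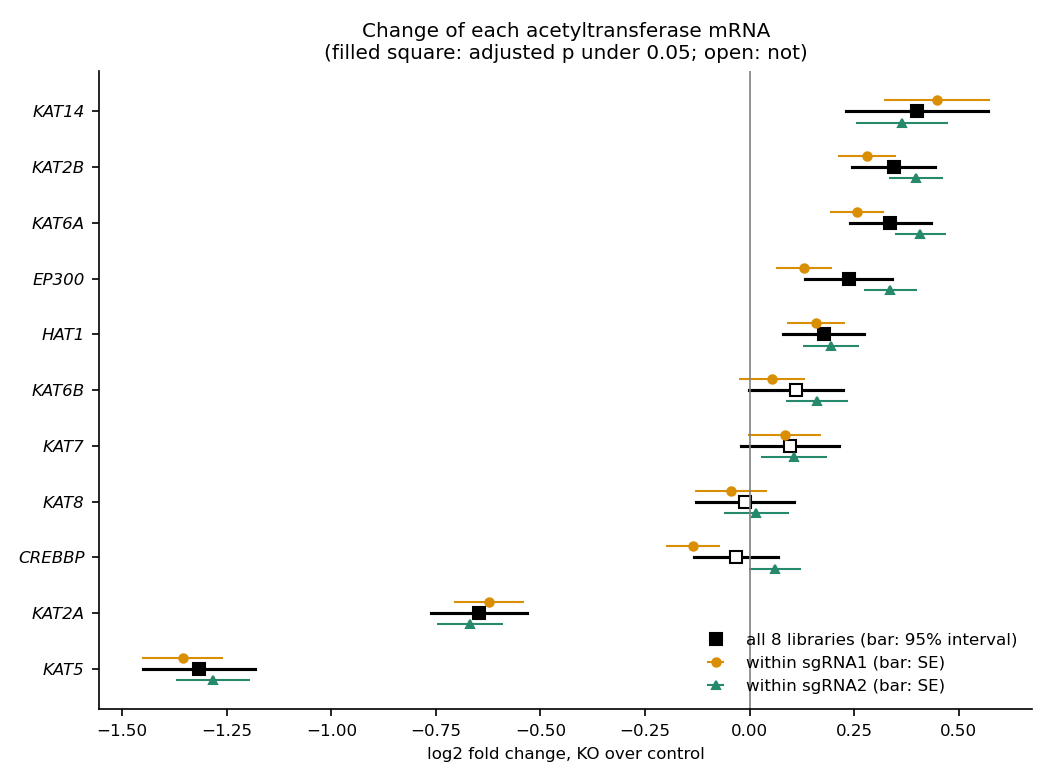
Log2 fold change of KO over control (horizontal axis) for each gene, as squares with 95% intervals for all 8 libraries and as circles and triangles with SE within sgRNA1 and within sgRNA2. The values run from -1.32 for KAT5 and -0.65 for KAT2A up to 0.40 for KAT14, and KAT6B, KAT7, KAT8 and CREBBP did not pass.

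The changes were then read within each guide number, in a model of the 4 group means in which pairs of libraries share the spread of all groups. KO and control libraries are matched here by the number alone, which need not name the same guide in both arms. Within sgRNA1, KAT2A fell (-0.62 ± 0.083, adjusted p = 8.77e-06) and 3 of the 10 rose, beside 47.6% of tested genes called (24.3% upward, 23.3% downward). These were KAT14 (0.45 ± 0.13, adjusted p = 0.00713), KAT2B (0.28 ± 0.070, adjusted p = 0.00306) and KAT6A (0.26 ± 0.065, adjusted p = 0.00319). Within sgRNA2, KAT2A fell (-0.67 ± 0.080, adjusted p = 1.82e-06) and 5 rose, beside 51.2% of tested genes called (25.7% upward, 25.4% downward). KAT6A (0.41 ± 0.062, adjusted p = 2.55e-05), KAT2B (0.40 ± 0.065, adjusted p = 5.68e-05) and KAT14 (0.37 ± 0.11, adjusted p = 0.00961) were among them again, with EP300 (0.34 ± 0.064, adjusted p = 0.000262) and HAT1 (0.19 ± 0.067, adjusted p = 0.0217).

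EP300 and HAT1 did not pass within sgRNA1, with 0.13 ± 0.066 (adjusted p = 0.118) and 0.16 ± 0.070 (adjusted p = 0.0716). The KO effect was not shown to differ between the guide numbers in any of the 10. Such a difference also holds any difference between the control libraries of the guide numbers. Over all 14455 genes edgeR called no difference between the guide numbers after adjustment (0 genes), and 638 genes, 4.41%, had an unadjusted p under 0.05. EP300 was one of these, with an effect higher by 0.21 ± 0.092 within sgRNA2 (95% interval 0.013 to 0.40, unadjusted p = 0.0380, adjusted p = 1.00), and CREBBP another (0.20 ± 0.089, unadjusted p = 0.0404, adjusted p = 1.00). The KO libraries of the guides had nearly the same EP300 level (sgRNA2 over sgRNA1 0.057 ± 0.063), and the control libraries less so (-0.15 ± 0.067, unadjusted p = 0.0387, adjusted p = 0.593). KAT2B (-0.16 ± 0.073) and KAT6A (-0.15 ± 0.066) showed the same sign of difference between the control libraries of the guides, also without passing (adjusted p = 0.595 and 0.583). Between the control libraries of the guides 4 of 14455 genes, 0.0277%, were called.

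Levels of different genes were compared per kb of the deposited gene length. In KO libraries the order was HAT1 (72.9 ± 2.87 CPM per kb), KAT2A (46.0 ± 0.493), EP300 (27.8 ± 1.13), KAT7 (21.6 ± 1.598), KAT6A (21.1 ± 0.569), KAT8 (15.5 ± 0.599), CREBBP (15.1 ± 0.466), KAT2B (14.5 ± 0.345), KAT6B (11.5 ± 0.683), KAT5 (7.93 ± 0.407) and KAT14 (5.10 ± 0.308). The ranges of KAT7 and KAT6A overlapped, as did those of KAT8 with CREBBP and of CREBBP with KAT2B, and the other neighbours were apart. In control libraries the order was KAT2A (72.6 ± 7.47 CPM per kb), HAT1 (64.1 ± 3.79), EP300 (23.7 ± 1.69), KAT7 (20.04 ± 1.10), KAT5 (19.8 ± 0.896), KAT6A (16.7 ± 1.16), KAT8 (15.8 ± 0.917), CREBBP (15.5 ± 0.997), KAT2B (11.4 ± 0.722), KAT6B (10.6 ± 0.636) and KAT14 (3.91 ± 0.220). There the overlapping neighbours were KAT2A with HAT1, EP300 with KAT7, KAT7 with KAT5, KAT6A with KAT8, KAT8 with CREBBP and KAT2B with KAT6B. On this length KAT5 stood at rank 10 of 11 in KO and at rank 5 in control libraries. The order depends on the length used. With the summed exon length of GENCODE, the KO order was KAT2A (40.7 CPM per kb), HAT1 (29.01), EP300 (19.5), KAT2B (12.9), CREBBP (10.2), KAT8 (9.70), KAT6A (8.25), KAT7 (6.91), KAT5 (5.03), KAT14 (4.62) and KAT6B (3.16). The control order on that length was KAT2A (64.3 CPM per kb), HAT1 (25.5), EP300 (16.6), KAT5 (12.5), CREBBP (10.4), KAT2B (10.2), KAT8 (9.93), KAT6A (6.54), KAT7 (6.42), KAT14 (3.54) and KAT6B (2.92), so that KAT5 stood at rank 9 in KO and at rank 4 in control libraries.

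**Figure D3:**
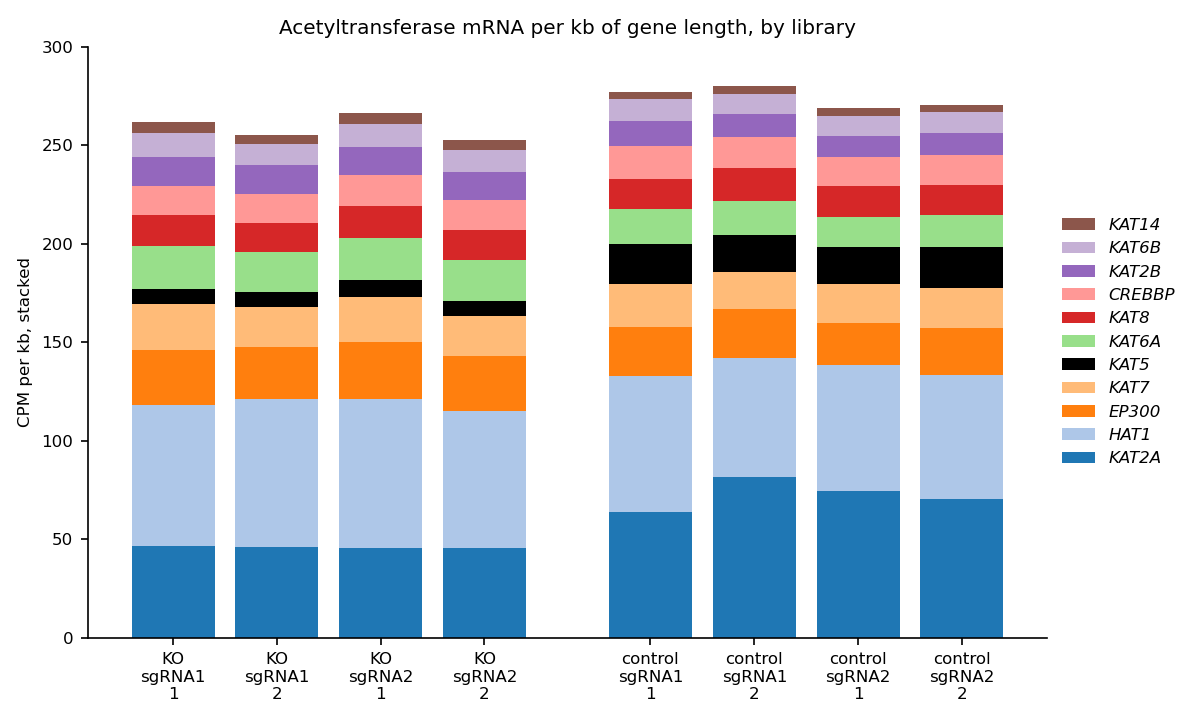
Stacked level of the 11 genes in CPM per kb of gene length (vertical axis, from 0) in each library, KO libraries left of control libraries, with KAT5 in black. The stacks reach 253 to 266 in KO and 269 to 280 in control libraries, the bottom block, KAT2A, averages 46.0 in KO and 72.6 in control libraries, and the black block, KAT5, 7.93 and 19.8.

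Summed over the 10 genes, the level per kb was close in the arms: 251 ± 5.75 CPM per kb (245 to 258) in KO and 255 ± 5.35 (250 to 261) in control libraries, a KO level of 98.7% of control on the deposited length and of 92.7% on that of GENCODE. Summed as CPM without length, the 10 genes stood at 1270 ± 32.5 in KO and 1228 ± 39.0 in control libraries, again with overlap. These sums are descriptions, since their genes were chosen with earlier results known. By family, the sums lay on different sides of the controls. The MYST genes without KAT5 stood at 69.7 ± 3.29 CPM per kb (66.0 to 72.6) in KO and 63.2 ± 2.08 (61.2 to 66.1) in control libraries, a difference of 6.44, while KAT5 itself differed by -11.8 CPM per kb. The MYST family with KAT5 stood at 77.6 ± 3.57 (73.8 to 80.8) in KO and 83.0 ± 2.72 (79.9 to 86.4) in control libraries. The GNAT genes stood at 139 ± 3.07 in KO and 152 ± 4.37 in control libraries without overlap, and EP300 with CREBBP at 43.0 ± 1.57 (40.9 to 44.7) and 39.2 ± 2.54 (35.8 to 41.8). Only KAT2A fell in the GNAT sum, by -26.6 CPM per kb, while HAT1, KAT2B and KAT14 differed by 8.79, 3.07 and 1.19. On the GENCODE length the MYST genes without KAT5 stood at 28.0 CPM per kb in KO and 25.8 in control libraries, and with KAT5 at 33.1 and 38.3. Summed as CPM without length, the MYST genes without KAT5 differed by 54.1 CPM, while KAT5 itself differed by -28.0. With KAT5 that sum was 444 ± 19.0 CPM (422 to 462) in KO and 418 ± 19.1 (399 to 444) in control libraries. The sign of the difference with KAT5 thus depended on the unit.

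Within each of 3 pairs of close paralogs the balance of mRNA differed between the arms. KAT6A was 1.79 to 1.93 times KAT6B per kb in KO libraries, against 1.53 to 1.67 times in control libraries. EP300 was 1.80 to 1.87 times CREBBP per kb in KO libraries, against 1.47 to 1.62 times in control libraries. Together with KAT2B over KAT2A, none of the pairs had KO and control libraries that overlapped, and no test was made of these ratios. Each pair holds a gene whose own arms did not overlap, as in 52.9% of all tested genes. The share among other pairs of genes was not computed.

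**Figure D4:**
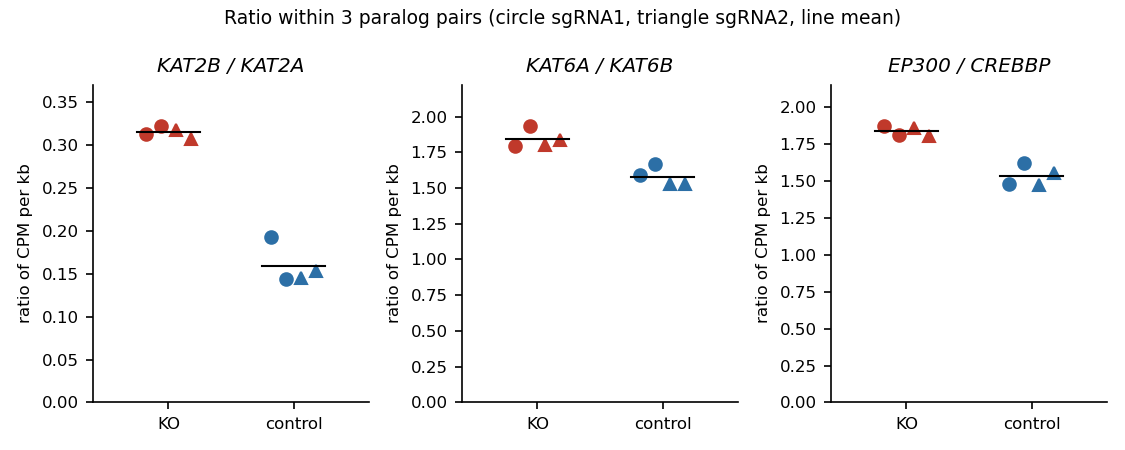
Ratio of CPM per kb within the pairs KAT2B over KAT2A, KAT6A over KAT6B and EP300 over CREBBP (vertical axes, from 0) in each library, KO left of control, with circles for sgRNA1, triangles for sgRNA2 and a line at the mean. The mean ratios are 0.315 in KO against 0.159 in control libraries for KAT2B over KAT2A, 1.84 against 1.58 for KAT6A over KAT6B and 1.84 against 1.53 for EP300 over CREBBP.

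By Pearson correlation of log2 CPM over the 8 libraries, the genes most like KAT2A among 9951 with a mean of at least 10 CPM were FBRSL1 (r = 0.999), the calcium-dependent kinase CAMKK1 (0.998) and the stress kinase MAPK12 (0.997). FBRSL1 had 93.3 ± 1.17 CPM in KO and 178 ± 23.8 in control libraries, CAMKK1 13.5 ± 0.412 and 29.2 ± 4.89, and MAPK12 31.2 ± 0.925 and 68.1 ± 10.1. All 3 were, like KAT2A, lowest among controls in sgRNA1 replicate 1 and highest in sgRNA1 replicate 2. Their choice by correlation over the same libraries favours such a shared order. Most like KAT14 were SHARPIN, a subunit of the linear ubiquitin ligase (r = 0.994), the lipase PNPLA2 (0.989) and the chaperone cofactor SIL1 (0.982), with log2 fold changes of 0.29 ± 0.069, 0.44 ± 0.054 and 0.34 ± 0.072. The correlations include the step between the arms, and its part in them was not tested. They are descriptions.

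Partner subunits of these enzymes, other acetyltransferases and genes of acetyl-CoA supply made up 7 lists of 73 genes. Of 70 tested, 15 rose and 34 fell, and the middle log2 fold change was -0.13, beside 31.8% upward, 31.2% downward and 0.0068 for all tested genes. Among tested genes within the range of mean level of the 10 genes, 29.3% were higher and 39.7% lower, with a median of -0.049. The counts of each list below are to be read beside these shares. Under the alternatives, 10 (without KO sgRNA1 replicate 1) to 22 (library totals alone) of the list genes rose and 31 to 37 fell. TADA2A, KANSL1 and ATAT1 were not tested, having 4, 4 and 3 counts at most in a library.

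For KAT2A and KAT2B, subunits of SAGA and ATAC were higher in 5 and lower in 8 of 19 cases, with a median of -0.14. WDR5, a scaffold shared with other chromatin complexes, had 70.2 ± 1.85 CPM in KO and 98.5 ± 2.53 in control libraries (log2 fold change -0.50 ± 0.045, adjusted p = 7.71e-09). The core subunit SUPT3H fell by 0.60 ± 0.094, TADA1 by 0.39 ± 0.062 and ATXN7L3, of the deubiquitinating module, by 0.28 ± 0.044 on the log2 scale.

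For the MYST genes, the scaffolds and readers of the KAT6A, KAT6B and KAT7 complexes were higher in 2 and lower in 5 of 9 cases, with a median of -0.20. JADE1, which directs KAT7 to histone H4, had 43.8 ± 0.741 CPM in KO and 64.6 ± 2.58 in control libraries (-0.57 ± 0.050, adjusted p = 4.64e-09). The shared subunits ING5 (-0.47 ± 0.054) and MEAF6 (-0.42 ± 0.052) fell, while ING4, the paralog of ING5, rose (0.46 ± 0.067, adjusted p = 5.33e-06). ING4 had 28.98 ± 0.464 CPM in KO and 21.1 ± 1.35 in control libraries, and ING5 45.8 ± 1.79 and 64.5 ± 4.16. The MSL and NSL subunits, partners of KAT8, were higher in 0 and lower in 5 of 9 cases, with a median of -0.12. MSL1, the scaffold that binds KAT8, fell to 109 ± 3.13 CPM in KO, against 181 ± 6.25 in control libraries (-0.73 ± 0.044, adjusted p = 1.23e-11). MSL3 (-0.33 ± 0.055), the sugar transferase OGT (-0.33 ± 0.060) and HCFC1 (-0.20 ± 0.044) fell less. KAT8 mRNA itself did not pass.

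Partners of EP300 and CREBBP were the list with more rises than falls, 7 higher and 2 lower of 11, with a median of 0.13. CITED2, which binds both coactivators and limits their use by other factors, had 177 ± 6.30 CPM in KO and 54.9 ± 6.46 in control libraries (1.66 ± 0.060, adjusted p = 4.47e-15). CITED1 rose by 0.82 ± 0.15, and the nuclear receptor coactivators NCOA3 (0.33 ± 0.051) and NCOA2 (0.23 ± 0.048) rose too.

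Partners of HAT1 and chaperones of histone H4 were higher in 0 and lower in 3 of 6 cases, with a median of -0.19. The importin IPO4 (-0.55 ± 0.043, adjusted p = 1.04e-09), RBBP4 (-0.38 ± 0.042) and RBBP7 (-0.33 ± 0.047), which holds the histone for HAT1, fell. RBBP7 had 590 ± 16.8 CPM in KO and 743 ± 36.3 in control libraries, and HAT1 itself was higher in KO. ASF1B had 0.13 ± 0.057 (adjusted p = 0.0526).

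Of 9 tested genes of further acetyltransferases, not among those described above, 1 was higher and 6 lower, with a median of -0.24. The RNA cytidine acetyltransferase NAT10 fell to 150 ± 6.85 CPM in KO, against 209 ± 5.48 in control libraries (-0.48 ± 0.044, adjusted p = 8.97e-09). NAA40, which acetylates the ends of histones H4 and H2A (-0.59 ± 0.055), and CLOCK (-0.34 ± 0.054) fell, and ESCO2, which acetylates cohesin, rose (0.33 ± 0.058). Genes that supply acetyl-CoA were higher in 0 and lower in 5 of 7 cases, with a median of -0.20. The citrate carrier SLC25A1 (-0.90 ± 0.043, adjusted p = 4.68e-13), the pyruvate dehydrogenase subunits DLAT (-0.63 ± 0.048) and PDHA1 (-0.20 ± 0.043) and the citrate lyase ACLY (-0.56 ± 0.045) fell. ACLY, which makes acetyl-CoA from citrate outside mitochondria, had 482 ± 10.0 CPM in KO and 711 ± 30.3 in control libraries.

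**Figure D5:**
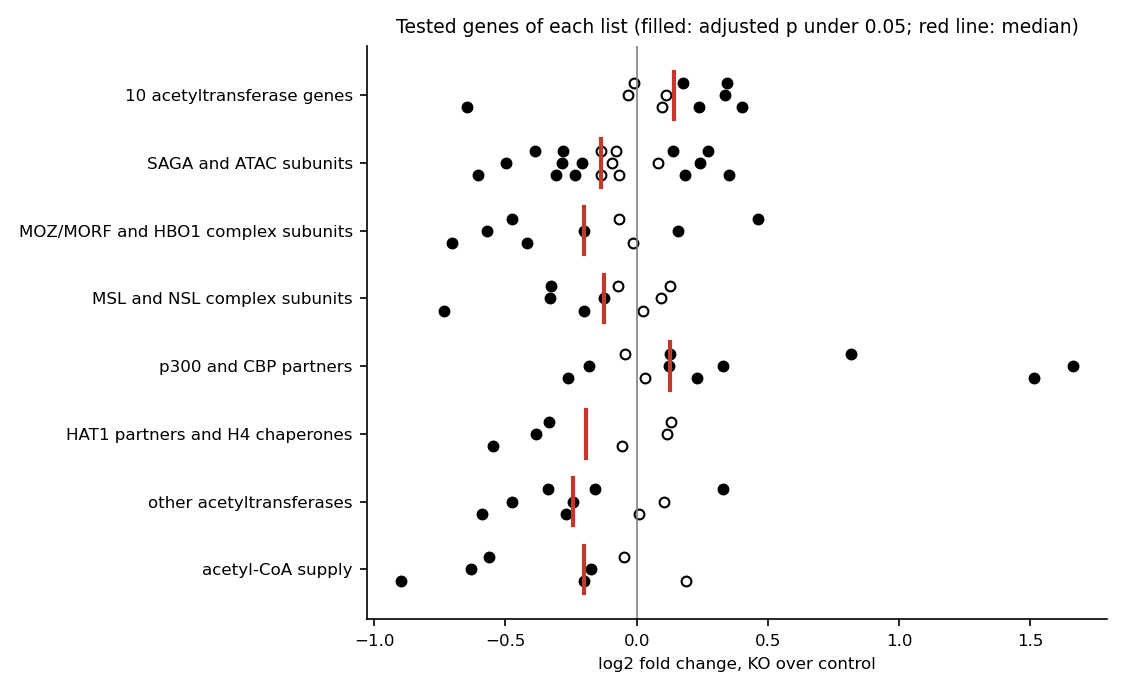
Log2 fold change of KO over control (horizontal axis) of each tested gene in the 10 acetyltransferase genes and the 7 lists of related genes, with filled points at an adjusted p under 0.05 and a red line at each list's median. The medians lie at 0.14 for the 10 genes and 0.13 for partners of EP300 and CREBBP, and between -0.24 and -0.12 for the other 6 lists.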

How the data were processed

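The values were raw gene counts, 1 table per library, as the authors deposited them with no normalisation. They were made with featureCounts on hg38, per the submitters' processing notes, from stranded poly(A) libraries read as 80 bp paired ends, per the labels' protocols. The sources used here give no aligner, annotation or strand setting. Of 28395 entries, 459 without an ID (0.0284 to 0.0425% of counts) were left out, and 27744 of 27936 genes took symbols and positions from RefSeq (GRCh38.p14). The gene length deposited by the authors served the values per kb. Exon overlaps were measured on GENCODE.

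Genes were kept by filterByExpr (minimum count 10, total 15) on the 4 groups. KO was compared with control in edgeR 4.0.16, after TMM scaling, by its quasi-likelihood test over the 8 libraries, with guide number as a covariate (5 residual degrees of freedom, biological coefficient of variation 0.0473). Comparisons within guides were contrasts of 4 group means (4 residual degrees of freedom). Benjamini-Hochberg adjustment ran over every tested gene, and the code was tested on simulated data. All 10 genes, KAT5, up to 4 genes per list with the smallest p, and the 3 genes most like the member with the greatest called rise and fall were named. Members and lists were chosen with earlier results of these data known. The SE of a log2 fold change was derived from the F statistic of its test. Its 95% interval used the residual and the prior degrees of freedom. The prior ones are estimated across genes (15.4 in the comparison of KO with control). Replicates of a group differed beyond sampling noise (chi-square per degree of freedom 1.60 to 7.96). Alternatives were DESeq2 1.42.0 and its size factors, limma-voom 3.58.1, library totals, other filters (none, or 1 CPM in 4 libraries), no guide term, the replicate number as a block, thinned counts and leaving out each library.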

Additional observations from a re-analysis of the deposited data

Results flagged for a closer look

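Within an arm of 4 libraries, 1 library stood apart by Dixon's test in 3 of 90 gene and arm combinations, where about 1 in 20 is flagged by chance. None was an acetyltransferase gene. NCOA3 had 49.1 CPM in control sgRNA2 replicate 1 and 53.8 to 54.4 in the other controls. CLOCK had 66.2 CPM in control sgRNA1 replicate 1 and 60.0 to 60.9 in the other controls. MAPK12 had 32.6 CPM in KO sgRNA2 replicate 2 and 30.6 to 30.9 in the other KO libraries.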

How the results depend on the processing

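KAT5, KAT2A, KAT2B, KAT6A, EP300, HAT1 and KAT14 kept their direction and call under all 17 alternatives, with log2 fold changes of -0.72 to -0.60 for KAT2A, 0.31 to 0.38 for KAT2B, 0.30 to 0.38 for KAT6A, 0.18 to 0.27 for EP300, 0.14 to 0.22 for HAT1 and 0.35 to 0.45 for KAT14. KAT8, which did not pass, turned to a positive sign with library totals alone (0.025), the stricter filter (0.0012), thinned counts (0.024) and 2 left-out libraries (at most 0.0064, from -0.047). CREBBP did so with library totals alone (0.00236) and without 1 control library (0.023, from -0.070). With library totals alone the median log2 fold change of all tested genes was 0.042, against 0.0068 in the main fit, a shift of 0.035. KAT6B and KAT7 passed in that setting. The cause of these changes was not tested. Deviations of same-numbered KO and control libraries correlated at 0.018 within sgRNA1 and 0.033 within sgRNA2. With 2 libraries per group, these values cannot settle whether replicate numbers pair the libraries. With the replicate number as a block, 4527 genes were higher and 4453 lower over all tested genes (4602 and 4507 without it), and 6 members were higher and 1 lower. The level of the 10 genes per kb in KO was 98.7% of control, 101% with library totals alone, 92.7% with GENCODE exon lengths and 97.3 to 99.4% without single libraries. Of 578 alternative values of the 34 other named genes, 574 stayed on their side of the threshold and 4, all of ASF1B, passed it. Of the 10 acetyltransferase genes, KAT14 had the fewest counts, 59 in the shallowest library, and the largest SE.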
